A study of Rattus norvegicus with 17 samples.

Results

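The comparison described here is that of the ventral prostate (VP) of old male rats whose mothers had been fed little protein with the VP of controls of the same age, and it covers 9 of the 17 small RNA libraries of the series, those whose labels give postnatal day (PND) 540. The CTR group (5 libraries) came from Sprague Dawley dams on a 17% protein diet in gestation and lactation, and the GLLP group (4 libraries) from dams on a 6% protein diet over the same periods. Diets were isocaloric and a single male was taken from each litter, so that the exposure was through the dam, and each library is of whole VP tissue rather than of a sorted cell type. The question was whether the miRNA content of the aged VP still differed between the maternal diets. The libraries also carry numbers from the authors in 2 ranges, 3 to 7 (CTR replicates 1 to 3, GLLP replicates 1 and 2) and 21 to 24 (CTR replicates 4 and 5, GLLP replicates 3 and 4). The labels do not say what the ranges stand for.

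A miRNA is a short RNA cut from a hairpin precursor. It guides a silencing complex to mRNAs that pair with its seed, the bases 2 to 8 from the 5′ end, so that miRNAs with the same seed are grouped as a family. The prostate is a gland of secretory and basal epithelium in a stroma rich in smooth muscle. The miR-200 family, miR-141, miR-205 and miR-375 are characteristic of epithelium, miR-143 and miR-145 of smooth muscle, miR-126 of endothelium, miR-142 of blood-derived leukocytes, and miR-451 and miR-144 of red blood cells.

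The mature sequences on which the results turn are shown 5′ to 3′ with the seed in capitals. They are RefSeq entries (GRCr8), except miR-486, which is from the study's own miRNA table. The first set holds the most abundant miRNAs of the tissue. As registered, miR-10a-5p and miR-10b-5p start at different bases of nearly the same sequence and therefore fall into different seed families.
miR-10a-5p: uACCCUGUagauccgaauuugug
miR-10b-5p: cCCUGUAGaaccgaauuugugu
miR-143-3p: uGAGAUGAagcacuguagcuca
miR-21-5p: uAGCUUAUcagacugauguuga
miR-486: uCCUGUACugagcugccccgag
The next set is the let-7 family, in which all members have the seed GAGGUAG and differ in the bases around it. They are shown because members of this 1 family went opposite ways between libraries.
let-7b-5p: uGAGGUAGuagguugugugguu
let-7c-5p: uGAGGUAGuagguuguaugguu
let-7d-5p: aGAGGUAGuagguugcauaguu
let-7g-5p: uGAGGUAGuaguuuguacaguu
let-7i-5p: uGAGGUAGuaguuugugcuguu
let-7f-5p: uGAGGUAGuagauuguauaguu
miR-98-5p: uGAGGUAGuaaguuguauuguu
The third set holds miRNAs with the smallest p-values or with groups that did not overlap. No pair of them shares a seed.
miR-6324: uCAGUAGGccagacagcaagcac
miR-142-3p: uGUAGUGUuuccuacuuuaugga
miR-7a-5p: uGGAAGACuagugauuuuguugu
miR-871-3p: uGACUGGCaccauacuggauaa
miR-200b-5p: cAUCUUACugggcagcauugga
miR-3553: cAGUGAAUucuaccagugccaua
miR-130b-3p: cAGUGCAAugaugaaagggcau
miR-497-5p: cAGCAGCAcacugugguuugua

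Total counts were between 9478339 and 28814812 per library in CTR and between 10792799 and 14939239 in GLLP, of which 96.8% to 99.6% were on rat miRNAs. Of 761 rat miRNA entries, 619 had a count in any of the 9 libraries, and 81 were listed at 0 in all 17 libraries, among them let-7a-5p, miR-125b-5p and miR-183-5p. Levels are given as CPM, read counts relative to the library's total on rat miRNAs, scaled with TMM, and a log2 fold change is that of GLLP over CTR from edgeR's quasi-likelihood fit, in which a covariate stood for the library-number range. The libraries are of different animals, so that their spread includes that between animals, and counting intervals, where given, cover counting error only since reads have no molecular identifiers.

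Some libraries stood apart in a way that crossed the diet groups. CTR replicate 1 and GLLP replicates 1 and 2 correlated with each other at 0.97 to 0.98 (log2 CPM of 352 miRNAs) but with the other 6 libraries only at 0.85 to 0.92, whereas those 6, CTR replicate 5 aside, correlated with each other at 0.95 to 0.99. In these 3 libraries, snoRNA and snRNA took 2.27% to 2.67% of all counts, against 0.327% to 0.901% in the other 6. MiRNAs of over 50% GC took 20.6% to 29.5% of their miRNA counts, against 3.28% to 5.24% in the other 6 and 9.05% to 10.8% at PND 21. Across the 352 miRNAs, which share these libraries, GC content and the log2 difference between the 3 libraries and the rest had a Pearson correlation of 0.63. With 2 of 4 GLLP libraries against 1 of 5 CTR libraries in this set, some results are given below with and without them, or with a term for them. Others are given over all libraries only and may move likewise. CTR replicate 5 was the other exception: it had the lowest level of the 9 libraries for 101 of the 352 miRNAs, and CTR replicate 1 followed with 60. It had the highest level for 53, fewer than GLLP replicate 1 with 68. The part of these differences in the results was not tested other than by the fits that are named.

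**Figure D1:**
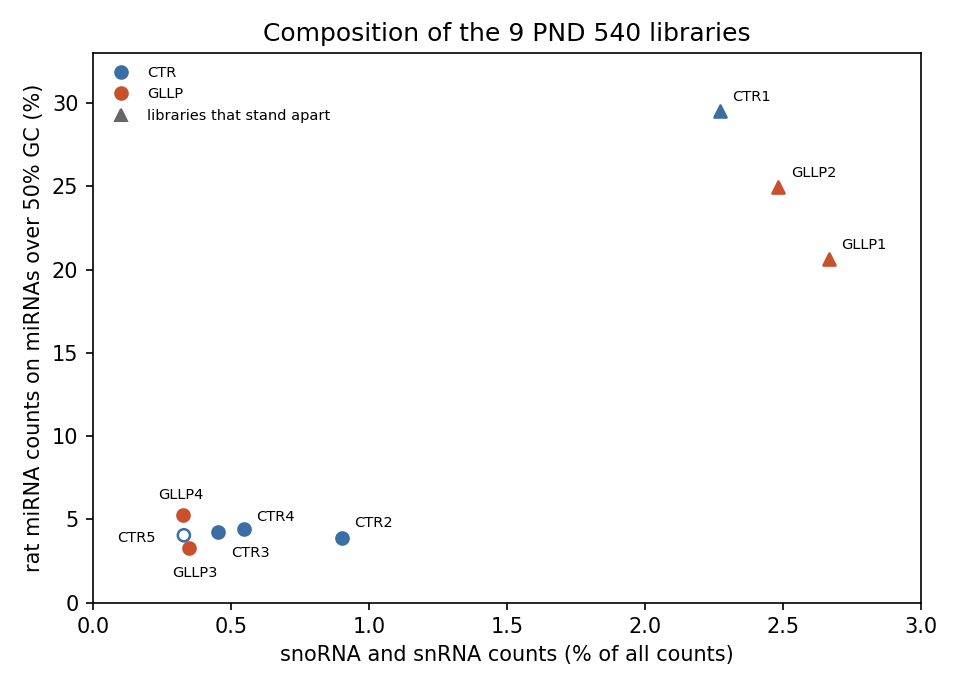
Share of counts on snoRNA and snRNA (x axis, percent of all counts) against the share of rat miRNA counts on miRNAs of over 50% GC (y axis, percent) in each PND 540 library. CTR replicate 1 and GLLP replicates 1 and 2 (triangles) sit above 20% on the y axis and the other 6 libraries below 6%.

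No difference of the abundant miRNAs between the diets was larger than the spread of the libraries. The 10 most abundant had mean levels between 18966 and 379536 CPM, and none passed the test. The first, miR-10a-5p, from a Hox cluster, was at 198730, 676907, 314107, 576195 and 390899 CPM in CTR and at 254654, 308289, 245661 and 450380 CPM in GLLP (here and below, libraries are listed in the order of their replicate numbers). The groups overlapped widely, with a log2 fold change of -0.49 (SE 0.48, unadjusted p = 0.339). It was -0.10 with terms for the range and for the libraries that stood apart. Likewise miR-143-3p, the smooth muscle miRNA, was at 77840, 259881, 399771, 128016 and 192159 CPM in CTR and at 101303, 95743, 219634 and 163807 CPM in GLLP. Its lowest 3 values were those of the libraries that stood apart, and its log2 fold change of -0.58 became 0.29 with a term for these libraries beside the range.

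The level of miR-21-5p, which is raised in many tumors and in fibrosis, was 8205, 59604, 49454, 89011 and 117541 CPM in CTR and 12528, 15367, 77252 and 74545 CPM in GLLP. The log2 fold change of -1.01 (SE 0.60, unadjusted p = 0.121) was 0.01 with the term for the 3 libraries, which were the lowest 3 for miR-21-5p. The opposite holds for miR-486, a miRNA of red blood cells and muscle, at 88595, 2214, 2577, 2551 and 15256 CPM in CTR and 32356, 61373, 1900 and 2274 CPM in GLLP. The 3 libraries were the highest here, and CTR replicate 5 followed. Its log2 fold change was -0.55 (SE 1.15) over all libraries, and the direction turned on single libraries, with 1.12 without CTR replicate 1 and 0.30 without CTR replicate 5. Without the 3 libraries it was -2.21 (unadjusted p = 0.0345), where CTR replicate 5 was far above the other 5. Of the other abundant miRNAs, miR-191a-5p, miR-148a-3p and miR-26a-5p were lowest in CTR replicate 5, at 1400, 2875 and 2035 CPM, while their other 8 libraries were between 10821 and 64222 CPM. The level of miR-26a-5p, which restrains growth in several tissues, was then between 13343 and 30337 CPM in CTR and between 16578 and 21504 CPM in GLLP.

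**Figure D2:**
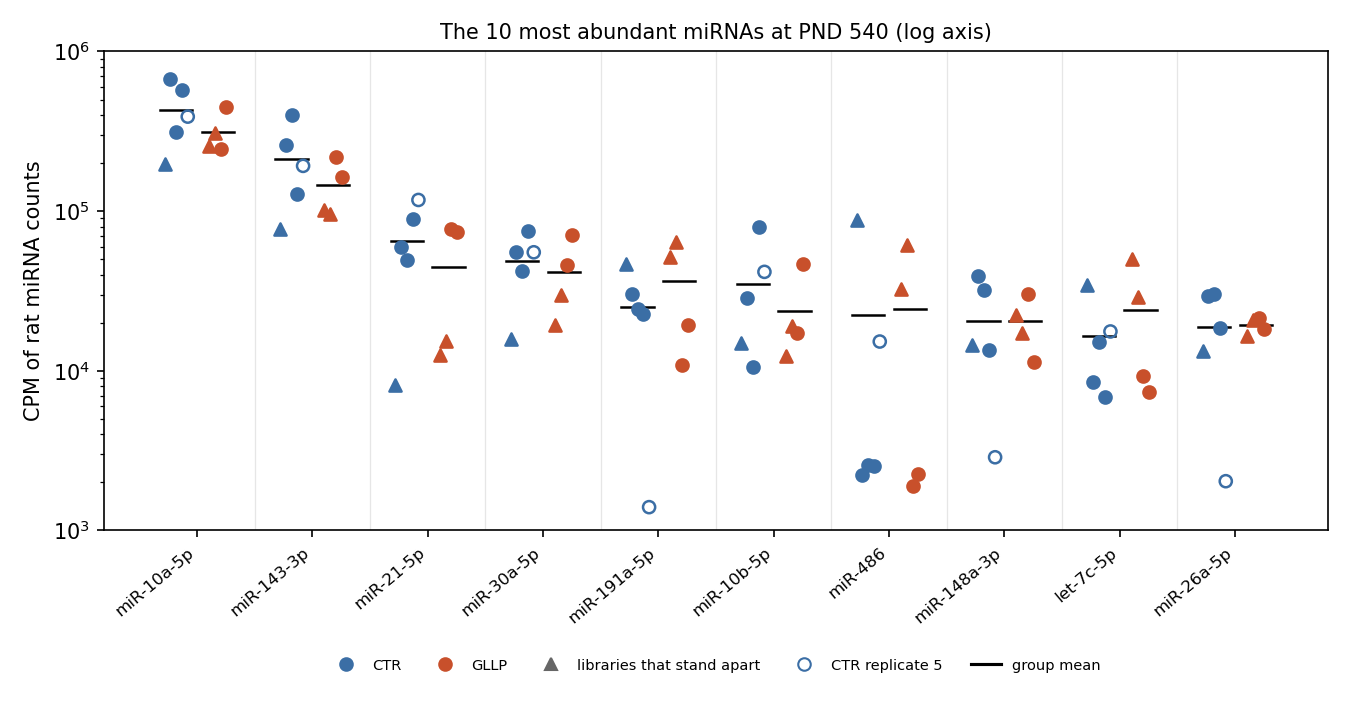
CPM of the 10 most abundant miRNAs (log axis), one point per library and a bar at each group mean, with CTR in blue and GLLP in red, triangles for CTR replicate 1 and GLLP replicates 1 and 2, and an open circle for CTR replicate 5. The groups overlap for each of the 10, and triangles gather high for miR-486 and low for miR-21-5p.

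Counts summed over seed families led to the same picture. Of 280 families tested, none passed an adjusted p of 0.05 in edgeR (0% called), 9 had an unadjusted p under 0.05 with a higher level in GLLP (3.21% of families) and 9 with a lower one (3.21%). By DESeq2, 3 families passed, and by limma-voom 1. The 5 most abundant families were those of miR-10a-5p, miR-143-3p, miR-30, miR-21-5p and let-7, and those of miR-10a-5p, miR-143-3p and miR-21-5p held a single miRNA. The miR-30 family, common in epithelium, summed to 71633 ± 27390 CPM in CTR (SD, n = 5) and 63381 ± 23312 CPM in GLLP (SD, n = 4), with a log2 fold change of -0.29 (SE 0.43). Most of it (69.0%) was miR-30a-5p. The 5 families with the smallest p were those of miR-6324, miR-142-3p, miR-7a-5p, miR-871-3p and miR-200b-5p, and each was 1 miRNA or nearly so: miR-7a-5p held 99.9% of the counts of its family and miR-200b-5p 97.4%.

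The let-7 family, a set of growth-restraining miRNAs of differentiated tissue, summed to 38276 ± 10827 CPM in CTR (SD, n = 5) and 41491 ± 23302 CPM in GLLP (SD, n = 4). The log2 fold change of the sum was 0.07 (SE 0.44, unadjusted p = 0.870). Within the family, libraries differed by member rather than by diet. The level of let-7b-5p was 17980, 1899, 2797, 2034 and 4532 CPM in CTR and 24013, 15056, 2012 and 1898 CPM in GLLP, so that the 3 libraries that stood apart were the highest. In contrast, let-7f-5p was at 2148, 9442, 12593, 7042 and 9927 CPM in CTR and 3199, 2206, 7824 and 6565 CPM in GLLP, and the same 3 libraries were the lowest. The mean log2 level in these 3 libraries minus that in the other 6 was 2.96 for let-7b-5p, 1.87 for let-7c-5p and 1.11 for let-7d-5p, but -1.81 for let-7f-5p and -1.93 for miR-98-5p. These sequences, printed above, share the seed, and have a GC content of 45.5% in let-7b-5p, 40.9% in let-7c-5p and let-7d-5p, and 31.8% in let-7f-5p and miR-98-5p. The order was not one of GC content alone, since let-7i-5p, also at 40.9%, had a difference of -0.79. One member, let-7a-5p, was listed at 0. Of the 8 members tested, 4 had a positive and 4 a negative log2 fold change between the diets, from -0.96 (let-7f-5p) to 0.65. With terms for the range and for the 3 libraries, 3 were positive and 5 negative (median -0.11), and let-7f-5p was at -0.02.

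**Figure D3:**
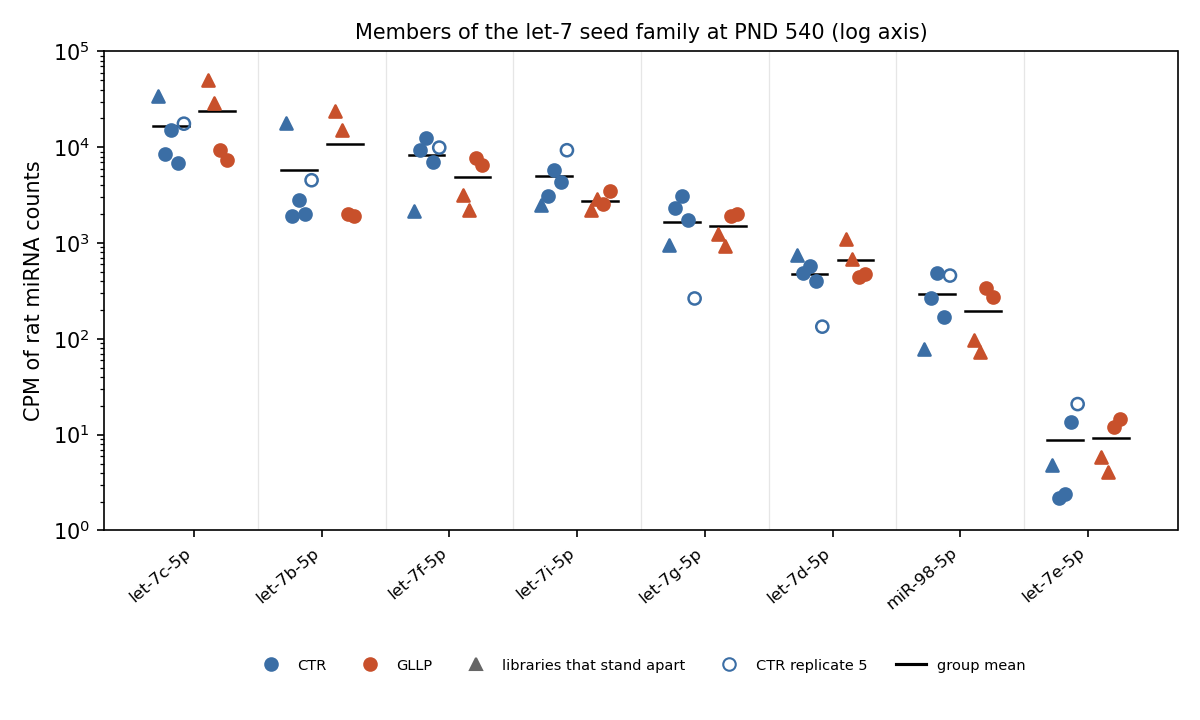
CPM of the 8 detected members of the let-7 seed family (log axis), one point per library and a bar at each group mean, with symbols as in the plot of abundant miRNAs. Triangles (CTR replicate 1, GLLP replicates 1 and 2) are the highest points for let-7b-5p and let-7c-5p and the lowest for let-7f-5p and miR-98-5p.

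Over all 352 miRNAs tested, none had an adjusted p under 0.05 in edgeR (0% called). By DESeq2, 3 passed (miR-6324, miR-142-3p and miR-7a-5p), and by limma-voom 1 (miR-6324). An unadjusted p under 0.05 was reached by 11 miRNAs with a higher level in GLLP (3.12% of those tested) and by 7 with a lower one (1.99%), and the exact permutation test within ranges gave p under 0.05 for 16 (4.55%). That test has 60 splits and cannot give less than 0.0167. The median log2 fold change of all miRNAs tested was 0.13, and it was -0.10 with DESeq2's size factors, 0.33 without a scaling factor and -0.23 with TMM over all small RNA species. The split of the miRNAs under an unadjusted p of 0.05 moved with it, from 11 higher and 7 lower to 5 higher and 14 lower with DESeq2's size factors and 5 and 15 with TMM over all species. The sign of small changes therefore depends on the scaling.

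Among miRNAs with a lower level in GLLP, miR-142-3p and miR-7a-5p had the smallest p-values and the same direction in both ranges of library numbers. MiR-142-3p, made by blood-derived cells, was at 5.64, 15.9, 10.1, 79.8 and 140 CPM in CTR and at 2.42, 4.06, 30.9 and 42.6 CPM in GLLP. The groups overlapped over all libraries, but in each range every GLLP library was below every CTR library. The share of all miRNAs tested that separate in this way is not given here. The exact permutation test within ranges gave p = 0.0333, and 4.55% of all miRNAs tested had a p under 0.05 by that test. MiR-142-3p was picked by p in a fit that holds the range, so the order within ranges is no separate support. The log2 fold change was -1.64 (SE 0.46, edgeR adjusted p = 0.794, unadjusted p = 0.00458) and -1.67 without the 3 libraries that stood apart. It was -1.33 (unadjusted p = 0.240) without the range, -0.76 with a term for the 3 libraries in its place and -0.68 with a replicate block. In bulk tissue, fewer cells of a type and less RNA per cell cannot be told apart. The opposite strand of the same hairpin, miR-142-5p, had a log2 fold change of -0.17 (SE 0.73). Its level was 164, 283, 252, 247 and 18.5 CPM in CTR and 84.5, 143, 234 and 232 CPM in GLLP, and without CTR replicate 5, its lowest library, the log2 fold change was -0.67 (unadjusted p = 0.127). Of the 6 leukocyte miRNAs, 4 were lower and 2 higher, with 1 at an unadjusted p under 0.05, and their summed level overlapped between the groups (495 to 3627 CPM in CTR and 1282 to 2728 CPM in GLLP).

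The level of miR-7a-5p, a miRNA of neural and endocrine cells that also targets growth factor receptors, was 18.5, 44.5, 34.2, 135 and 167 CPM in CTR and 9.18, 14.1, 51.5 and 68.8 CPM in GLLP. As with miR-142-3p, GLLP was below CTR in each range (exact permutation p = 0.0333), and this is likewise no separate support. Its log2 fold change was -1.41 (SE 0.42, edgeR adjusted p = 0.794), and -1.41 without the 3 libraries. It was -1.15 (unadjusted p = 0.177) without the range, -0.66 with a term for the 3 libraries in its place and -0.78 with a replicate block. The red blood cell miRNA miR-144-3p was at 0.607, 0.938, 1.33, 3.99 and 29.01 CPM in CTR and 0.310, 0.131, 7.53 and 3.89 CPM in GLLP, and its log2 fold change of -1.80 was -1.10 (unadjusted p = 0.239) without CTR replicate 5. The 4 red blood cell miRNAs all had a negative log2 fold change under each of the 4 scalings (median -0.65 with TMM over rat miRNAs), with 1 at an unadjusted p under 0.05. Of the 4, 1 was positive without CTR replicate 5 and 2 without the 3 libraries. Most of their summed level was miR-486.

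Among miRNAs with a higher level in GLLP, miR-6324 had the smallest p of all. It was at 0, 0, 0.0805, 0 and 0.170 CPM in CTR and at 8.62, 3.60, 3.08 and 1.26 CPM in GLLP, that is, 4 reads in all CTR libraries and 257 in all GLLP libraries. GLLP was higher in 4 of 4 libraries. With at most 2 reads in a CTR library, miR-6324 passed the filter on low counts only through the GLLP libraries, in which it was high, so that its p and the lack of overlap are a description. The pooled ratio was 86.8, with a 95% counting interval (exact, conditional binomial) of 33.5 to 321, and the fitted log2 fold change of 6.10 depends on the prior count at such levels. It was 4.27 without the 3 libraries that stood apart, 5.49 without GLLP replicate 1, which held 139 of the 257 GLLP reads, and 7.40 without CTR replicate 5. The edgeR adjusted p was 0.0779, and over the alternatives it lay between 0.000102 (DESeq2) and 0.694.

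From the miR-200b hairpin, of the epithelial miR-200 family, the minor strand had the smaller p. MiR-200b-5p was at 132, 77.9, 63.8, 47.7 and 40.7 CPM in CTR and at 235, 217, 82.7 and 75.0 CPM in GLLP. The groups overlapped, but GLLP was above CTR within the libraries that stood apart and within those numbered 21 to 24. That order is a description, since miR-200b-5p was picked by its p in the same libraries. The share of all miRNAs tested with such an order is not given here. The log2 fold change was 1.09 (SE 0.39, edgeR adjusted p = 0.798) and 0.75 (unadjusted p = 0.172) without the 3 libraries. Its major strand miR-200b-3p, the functional one in epithelium, was between 3682 and 10062 CPM in CTR and between 5231 and 9718 CPM in GLLP, with a log2 fold change of 0.35 (SE 0.40). The level of miR-3553 was 62.6, 63.0, 62.5, 106 and 34.4 CPM in CTR and 155, 99.3, 164 and 166 CPM in GLLP. Only GLLP replicate 2 and CTR replicate 4 were out of order, the log2 fold change was 1.12 (SE 0.43, edgeR adjusted p = 0.798), and it was 1.16 without the 3 libraries. The others among the 10 smallest p were miR-99b-3p (log2 fold change 1.30) and miR-183-3p (1.27), for both of which the groups overlapped.

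**Figure D4:**
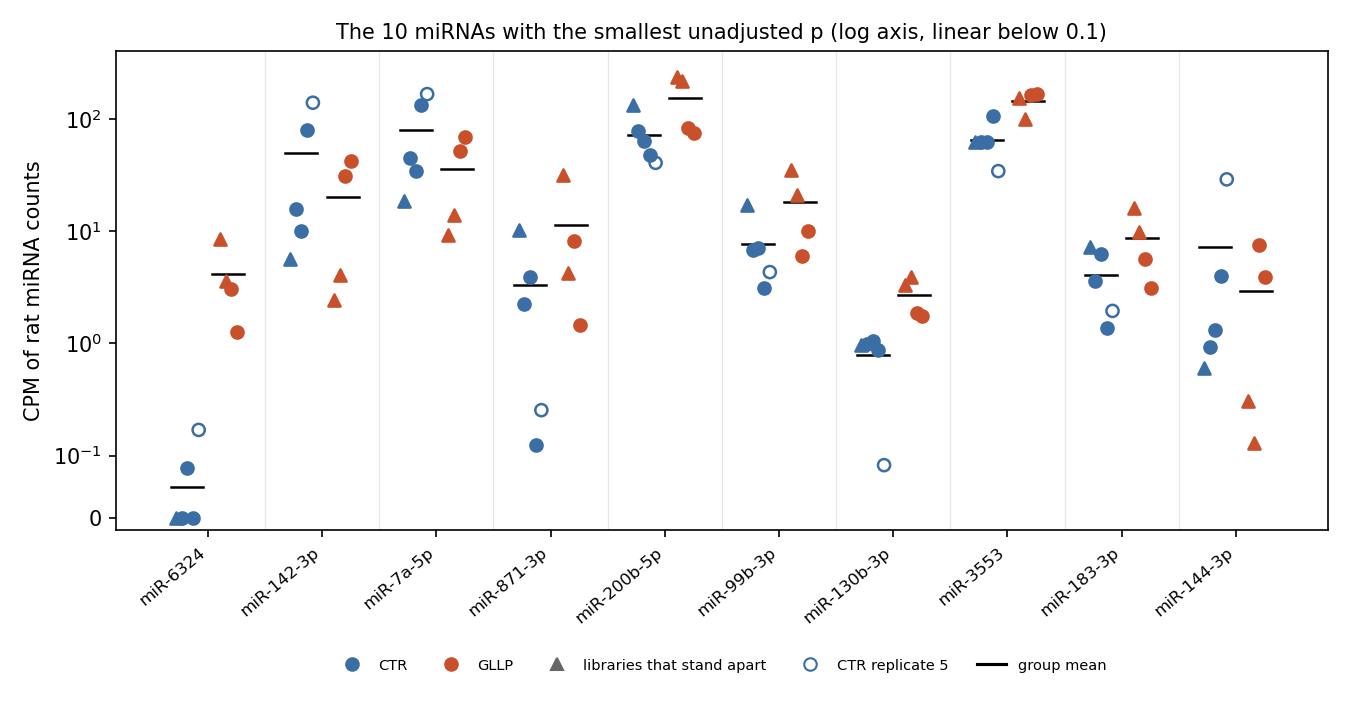
CPM of the 10 miRNAs with the smallest unadjusted p, ordered by p (log axis, linear below 0.1), one point per library and a bar at each group mean, with symbols as in the plot of abundant miRNAs. GLLP and CTR do not overlap for miR-6324 and miR-130b-3p and overlap for the other 8.

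Groups without overlap were found for 3 miRNAs higher in GLLP (0.852% of those tested) and for none lower (0%). They were miR-6324, miR-130b-3p and miR-497-5p. MiR-497-5p, of the miR-15/16 family, which slows the cell cycle, was at 27.4, 37.4, 30.4, 36.9 and 5.26 CPM in CTR and at 43.0, 52.2, 47.2 and 51.0 CPM in GLLP. Its log2 fold change was 0.88 (SE 0.53, unadjusted p = 0.130, exact permutation p = 0.0333), and 0.56 (unadjusted p = 0.109) without CTR replicate 5, its lowest library. Since miR-497-5p was named for its lack of overlap, the permutation p is close to fixed by that choice and is no separate support. MiR-130b-3p was at 0.971, 0.996, 1.05, 0.872 and 0.0848 CPM in CTR and at 3.35, 3.93, 1.85 and 1.75 CPM in GLLP, with a log2 fold change of 1.89 (SE 0.69, edgeR adjusted p = 0.798). It stayed at 1.62 without CTR replicate 5 and at 1.93 without the 3 libraries. In the family of miR-497-5p, miR-16-5p, which holds 83.5% of the counts, had a log2 fold change of -0.08 (SE 0.80). The 6 members ranged from -0.39 to 0.88, and 2 were positive, miR-497-5p and miR-15b-5p (0.50, SE 0.55). The signs depended on the setting, with 5 of 6 positive without a scaling factor, and 6 of 6 both without the 3 libraries that stood apart (median 0.74) and with terms for the range and for these libraries (median 0.65). Without CTR replicate 5, in which the summed level of the 6 was lowest (390 CPM), 2 of 6 were positive (median -0.52).

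For miR-18a-5p and miR-345-3p, the size of the difference depended on 1 library. Over all libraries, the log2 fold change was -2.39 (unadjusted p = 0.0385) for miR-18a-5p and -0.92 (unadjusted p = 0.170) for miR-345-3p. In CTR replicate 5, miR-18a-5p was at 173 CPM, against 0.496 to 7.09 CPM in the other 8, and miR-345-3p was at 135 CPM, against 16.8 to 29.3 CPM. Without it, the log2 fold change was -0.74 (unadjusted p = 0.325) for miR-18a-5p and -0.18 (unadjusted p = 0.636) for miR-345-3p. Of the 9 miRNAs of miR-17~92 and its paralogs, 5 had a positive and 4 a negative log2 fold change, with miR-18a-5p the one at an unadjusted p under 0.05. From the imprinted cluster that begins with miR-379, miR-379-5p was at 1.40, 1.29, 3.06, 37.6 and 8.06 CPM in CTR and 0, 0.328, 2.84 and 14.01 CPM in GLLP (log2 fold change -2.40, SE 0.97, edgeR adjusted p = 0.798). That is the lowest log2 fold change of all miRNAs tested, and how the rest of the cluster went is not given here. The mean log2 level of miR-379-5p in the 3 libraries that stood apart minus that in the other 6 was -3.78.

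Families and marker lists of the tissue overlapped between the diets. Of all miRNAs tested, 57.4% had a positive log2 fold change. Of the 10 epithelial miRNAs tested, 5 were positive and 5 negative (median 0.15), and their summed level was 26567 to 75230 CPM in CTR and 44718 to 61017 CPM in GLLP. With TMM over all species 3 of the 10 were positive, and with terms for the range and for the 3 libraries 9 of the 10 (median 0.49, beside 0.19 for all tested). Without CTR replicate 5, which had the lowest sum, 4 of the 10 were positive (median -0.20, beside 0.01 for all tested). Of the 7 stromal and smooth muscle miRNAs, 2 were positive and 5 negative (median -0.11). The 2 endothelial miRNAs, both strands of miR-126a, had log2 fold changes of -0.55 and 0.03, and the 15 tested miRNAs from the prostate cancer literature had a median of 0.06, with 8 positive and 7 negative. That split was 3 and 12 with TMM over all species, 5 and 10 with DESeq2's size factors, and 12 and 3 with terms for the range and for the 3 libraries. It was 6 and 9 without CTR replicate 5. No member of these lists had an unadjusted p under 0.05.

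Further families, and groups of related miRNAs, gave the same picture. Of the 6 tested members of the group of miR-10, miR-99 and miR-125, which are alike in sequence but differ in seed, 5 were negative under each of the 4 scalings (median -0.25 with TMM over rat miRNAs). Of the 4 members of miR-181, found in lymphocytes and epithelium, 3 were positive (median 0.51), and 3 or 4 were under each scaling. Without CTR replicate 5, 4 of the 6 in the miR-10 group were negative and 2 of the 4 of miR-181 positive. For the others the sign turned with the scaling, as it did for all miRNAs tested, of which 57.4% were positive with TMM over rat miRNAs, 37.2% with TMM over all species and 69.6% without a scaling factor. In the group of miR-23, miR-24 and miR-27, which are made from shared transcripts and differ in seed, 4 of 5 were positive (median 0.07) and 1 of 5 with TMM over all species. Both members of miR-26, both of miR-221 and miR-222 and all 3 of miR-148 and miR-152 were positive (medians 0.18, 0.21 and 0.35), against 0, 0 and 1 with TMM over all species. In the family of miR-34 and miR-449, which share a seed, 3 of 4 tested were positive (median 0.48) and 2 of 4 with TMM over all species. Of the 5 members of the miR-30 list, 1 was positive (median -0.12), and 3 were without a scaling factor. No member of these 8 lists had an unadjusted p under 0.05.

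The 3 members of the miR-29 family, which targets collagens, were all negative (miR-29a-3p -0.28, miR-29c-3p -0.71 and miR-29b-3p -1.25), under each of the 4 scalings, but none passed a p of 0.05. With terms for the range and for the 3 libraries the values were 0.04, 0.17 and -0.44. The log2 fold change of miR-9a-5p, a neural miRNA, was -1.07 (unadjusted p = 0.0441), and -0.53 (unadjusted p = 0.209) with these terms. Its levels were 161, 565, 489, 614 and 905 CPM in CTR and 135, 230, 368 and 409 CPM in GLLP. The defining neural miRNA miR-124-3p was at 0.527 CPM or less in each library. Markers of liver and striated muscle, which a VP dissection should lack, were also low. MiR-122-5p of liver was at 0.292 CPM or less. The 6 miRNAs of striated muscle summed to 1.09 to 18.3 CPM in CTR and 3.29 to 16.7 CPM in GLLP. Of these, miR-499-5p was at up to 13.8 CPM, while miR-1-3p was at 3.37 CPM or less and miR-133a-3p at 0.0848 CPM or less. The list known from testis and epididymis, given next, was not low in every library, with sums of up to 605 CPM in CTR and 753 CPM in GLLP.

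The miRNAs of an X-linked cluster known from testis and epididymis had the list median farthest from 0. Of its 12 members, 8 passed the filter on low counts, and all 8 had a positive log2 fold change (median 1.44, from 0.43 to 2.86), or 7 of 8 with TMM over all species, with 1 at an unadjusted p under 0.05. The values swung between libraries of 1 group. Their sum came to 47.0, 183, 605, 11.1 and 18.5 CPM in CTR and to 289, 21.2, 753 and 73.2 CPM in GLLP. The lowest levels were in CTR replicates 4 and 5 and the highest in GLLP replicate 3 and CTR replicate 3. The member with the smallest p, miR-871-3p, was at 10.2, 2.23, 3.90, 0.125 and 0.254 CPM in CTR and at 31.6, 4.26, 8.14 and 1.46 CPM in GLLP (log2 fold change 2.86, SE 0.97, edgeR adjusted p = 0.798). The most abundant, miR-743b-3p, was at 17.0, 116, 434, 4.61 and 1.36 CPM in CTR and at 130, 10.9, 538 and 45.0 CPM in GLLP. The list is of 1 genomic cluster, so its members are not independent. Without CTR replicate 5, 5 of 8 were positive and the median was 0.29, and without the 3 libraries that stood apart 9 of 9 were positive with a median of 4.44.

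**Figure D5:**
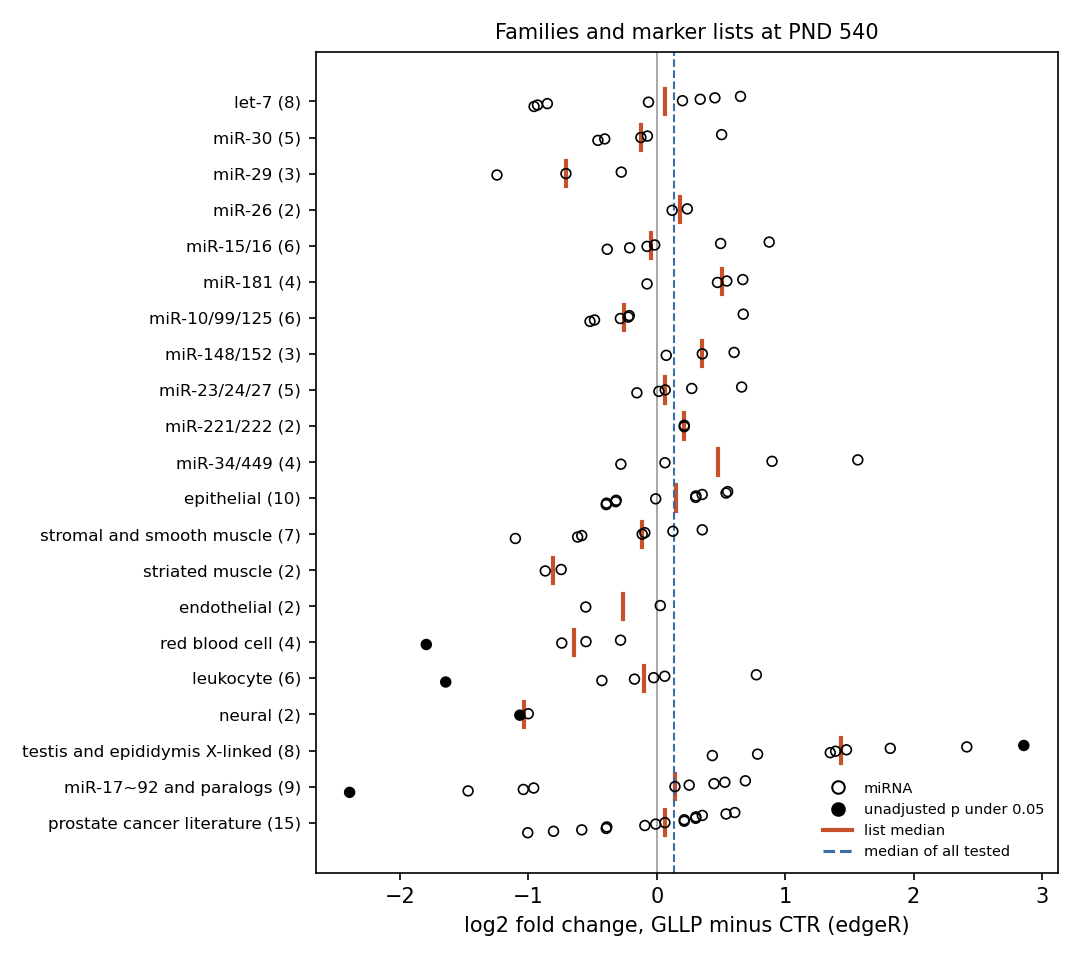
Log2 fold change (x axis, GLLP over CTR, edgeR) of the tested members of each family or marker list, with the number tested in brackets. Filled points have an unadjusted p under 0.05, red bars are list medians and the dashed line is the median of all tested miRNAs (0.13). List medians lie between -1.03 (neural) and 1.44 (X-linked), and the members of most lists spread to both sides of 0.

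Ratios of the arms of a hairpin, which do not depend on how libraries are scaled, gave no call either. Of 85 hairpins, none passed an adjusted p of 0.05 in limma and 3 had an unadjusted p under 0.05 (3.53%): miR-455, miR-223 and miR-384. Their log2 ratios of the 5p to the 3p arm differed between GLLP and CTR by -3.60, -2.87 and 1.26 (adjusted p 0.780 for each, limma). With 0.5 counts added to each arm, the ratio of miR-455 was -10.4 in GLLP replicate 1, in which the 5p arm had 0 reads, and for miR-223, a myeloid miRNA, 0 reads of the 5p arm in the same library gave -9.17. Without GLLP replicate 1, 0 of the 85 hairpins had an unadjusted p under 0.05.

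Whether the diet difference at PND 540 was that of PND 21 was tested over all 17 libraries. No miRNA of the 467 tested passed an adjusted p of 0.05 in edgeR, and 53 had an unadjusted p under 0.05 (11.3%). For miR-3553 the log2 fold change was -1.28 at PND 21 and 1.12 at PND 540, a change of 1.96 in the joint fit (SE 0.51, unadjusted p = 0.00126, edgeR adjusted p = 0.137). For miR-142-3p it was -0.41 at PND 21 (change -1.81, unadjusted p = 0.00366), and for miR-7a-5p -0.90 (change -1.06, unadjusted p = 0.0493). MiR-871-3p was at -1.56 (change 3.92, unadjusted p = 0.00242). At PND 21 alone, the unadjusted p (edgeR) was 0.00163 for miR-3553, 0.0602 for miR-142-3p, 0.00161 for miR-7a-5p and 0.00194 for miR-871-3p. These miRNAs were picked by p at PND 540, whose libraries also enter the joint fit, so their changes are no independent support. PND 21 libraries carry numbers 13 to 20, a range that holds no PND 540 library, so age and range cannot be told apart.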

How the data were processed

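Small RNA of the VP was sequenced by the authors (TruSeq Small RNA libraries, HiSeq2500). After adapter trimming, a quality filter (Phred 20) and STAR alignment to Rnor_6.0, the authors deposited raw read counts for each small RNA entry, 1 library at a time. The version of the aligner is not given in the sources used here. Entries of rat miRNAs were used, and joined names were kept as 1 entry. Which reads an aligner keeps at several loci affects miRNAs with several copies.

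From these counts, GLLP was compared to CTR with edgeR 4.0.16 in R 4.3.3 (TMM over rat miRNAs, default filter on low counts, quasi-likelihood test, Benjamini-Hochberg adjustment over all miRNAs tested), with a covariate for the library-number range. Counts summed by seed were fitted likewise. Log2 ratios of hairpin arms (mean of at least 20 counts per arm, 0.5 added) were fitted with limma 3.58.1. Levels (log2 CPM, prior count of 2) were also compared with an exact two-sided permutation test within ranges. A fit of all 17 libraries tested the change with age. Scripts were tested on simulated data. DESeq2 1.42.0, limma-voom, other scalings and filters, each range alone and leaving out each library were alternatives.

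Named miRNAs were the 10 most abundant, the 10 with the smallest p, members of at least 100 CPM of the 5 most abundant and the 5 smallest-p families, those with no overlap, the 2 most abundant members of each of 22 lists, miR-18a-5p, miR-345-3p and the 3 hairpins with the smallest p. Others are named by list or for contrast, after their values were seen. The comparison and the lists were chosen with earlier results of these data known. Of 761 entries, 751 were matched to a mature sequence, 685 of them in RefSeq (GRCr8). No coordinates are given because that build is not the one of the files. Figures were drawn with matplotlib 3.10.9.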

Additional observations from a re-analysis of the deposited data

Results flagged for a closer look

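In groups of this size, a library was looked at again where its gap to the nearest other library was a larger part of the group's range than Dixon's 95% limit allows. Of 54 groups examined (log2 levels of some of the named miRNAs, and measures of the libraries), 6 met this, and chance gives about 1 in 20, or 2.7. Not every named miRNA was examined, so others may meet the limit too. The groups share the same libraries and are not independent. In CTR, replicate 5 was far below the other libraries for miR-130b-3p (gap 0.906 of the range), miR-497-5p (0.841) and miR-191a-5p (0.796), and far above them for miR-345-3p (0.825) and miR-18a-5p (0.740). In GLLP, replicate 2 was far below the others for miR-3553 (0.868), at 99.3 CPM against 155 to 166 CPM.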

How the results depend on the processing

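No miRNA, seed family or arm ratio passed an adjusted p of 0.05 in edgeR or limma, but some alternatives departed from this. With every miRNA of at least 1 count kept, 1 miRNA and 2 families passed, with DESeq2 3 and 3, with limma-voom 1 and 1, and with single libraries left out the count of miRNAs was 0 to 1 (1 without CTR replicate 5). The miRNAs were miR-6324 throughout and, with DESeq2, miR-142-3p and miR-7a-5p. At an unadjusted p under 0.05, 18 miRNAs, 18 families and 3 arm ratios became 5, 4 and 0 without the range. With a mean of at least 10 CPM they were 9 of 206 miRNAs and 7 of 159 families. The count was 28 of 619 miRNAs with at least 1 count, 34 of 352 with DESeq2, and 10 of 280 families without a scaling factor. It was 1 arm ratio both with 5 counts added and with a mean of at least 200 counts. Leaving out single libraries gave 7 (GLLP replicate 1) to 30 (CTR replicate 1) miRNAs, with 11 without GLLP replicate 2 and 9 without GLLP replicate 3. It gave 7 to 26 families (the lowest without GLLP replicate 1, and 8 to 11 without CTR replicates 2 and 3 or GLLP replicates 2 to 4), 0 to 7 arm ratios (0 without CTR replicate 2 or GLLP replicate 1, 7 without CTR replicate 4, 6 without CTR replicate 1 or GLLP replicate 2, 1 without CTR replicate 3 or 5 or GLLP replicate 4) and 3 to 7 miRNAs without overlap, where there were 3 (7 without CTR replicate 1, 6 without GLLP replicate 1 or 2). Of the 53 changes with age, 32 were left without the range and 22 with a mean of at least 10 CPM. The permutation test gave 4 miRNAs in place of 16 when libraries were permuted across ranges, and 1 miRNA without overlap had a mean of at least 10 CPM. The cause of these differences was not tested.

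The alternatives on the 3 libraries that stood apart and on the snoRNA and snRNA share were chosen after seeing the data. Without the 3 libraries, 32 of 359 miRNAs, 30 of 286 families and 7 arm ratios had an unadjusted p under 0.05. Groups did not overlap for 36 miRNAs. With fewer libraries per group, more miRNAs fail to overlap whatever the diet, so the 36 cannot be set beside the 3 over all libraries. A term for the 3 libraries that stood apart, in place of the range, gave 7, 6 and 1. Both terms gave 29 of 352 miRNAs. None of these passed the adjustment.

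GLLP and CTR share replicate numbers, which the labels do not tie to a litter or day. Same-numbered libraries had a mean correlation of deviations of 0.39 (-0.34 to 0.73), and 2 of 4 GLLP libraries correlated best with their own number. With a replicate block, 5 miRNAs, 4 families and 0 arm ratios had an unadjusted p under 0.05.

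Of the 69 named miRNAs tested, 26 kept the sign of their log2 fold change in all 25 alternatives, among them the 10 with the smallest p. Those 10 were picked by p in the same libraries that the alternatives refit, so their constant sign is no independent support. At under 10 CPM, where miR-6324 and miR-130b-3p lie, few reads per library limit the precision.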
